A study of Mus musculus with 8 samples.

Results

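Eng, Acvrl1 and Cdh5 are 3 genes known for their roles in blood vessel lining, and their 5-hydroxymethylcytosine (5hmC) was followed here in primary mouse myoblasts. They were taken by gene symbol, 3 of the 273 genes in the deposited tables, and all 3 belong to the 220 genes that the authors marked UP in Psat1-deleted cells. The values come from 5hmC immunoprecipitation sequencing of myoblasts grown from hindlimb muscle, with 2 libraries per genotype. Psat1KO cells had the genotype Pax7 CRE+/-;Psat1fl/fl, and CTRL cells had Pax7 +/+; Psat1fl/fl, so both carried the floxed Psat1 gene and the Cre allele at Pax7, a gene of muscle stem cells, was present in Psat1KO cells alone. An effect of that allele and one of Psat1 loss therefore cannot be told apart. Psat1 itself was not analysed here. The criterion behind the UP mark is not given in the sources used here, and neither are the ages of the mice, any pooling of animals, or whether the replicates were separate animals.

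5hmC is made from methylated cytosine, mostly at CG dinucleotides, by the TET enzymes, which use alpha-ketoglutarate as a co-substrate. PSAT1, an enzyme of serine synthesis, releases alpha-ketoglutarate in its reaction. Eng encodes endoglin, a membrane co-receptor that presents circulating BMP ligands, and Acvrl1 encodes ALK1, the receptor kinase that endoglin assists and that signals through SMAD proteins in endothelium. Mutations of either gene in people cause hereditary haemorrhagic telangiectasia, a disease of malformed vessels. Cdh5 encodes VE-cadherin, the adhesion protein of endothelial cell junctions. All 3 are best known from endothelial cells. 5hmC at a gene does not measure its expression.

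The tables give the signal of every gene in the same number of bins. The level of a gene was the average of its bins, a value per position that can be set between genes of different length. The signal has a smallest step that differs between libraries. Read as 1 read in the library scaled to 1000000 reads (RPM, inferred from the values), this step implied 30559008 and 69794435 reads in the Psat1KO libraries of set 1 and set 2, against 22632699 and 69765569 in the CTRL libraries. Dividing a signal by its step gives the reads at that position. Between 91.8% and 94.9% of low values among the UP genes came within 0.1 of a whole read in each library. Intervals below are exact 95% intervals from these reads and cover counting error only, without PCR duplicates or reads that reach 2 neighbouring bins. The number of the set, 1 or 2, was taken as the replicate number. The labelled cell type could not be checked by expression: of 8 myoblast markers the tables hold Myf5 and Pax7, both marked DOWN, and of 10 endothelial markers they hold Cdh5.

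Eng lies on chromosome 2 (32646595 to 32682669, 36075 bases), Acvrl1 on chromosome 15 (101128522 to 101145336, 16815 bases) and Cdh5 on chromosome 8 (104101613 to 104144504, 42892 bases), in RefSeq's annotation of GRCm38, the assembly called mm10. All 3 genes are on the plus strand. The tables follow transcript NM_007932 of Eng, NM_001277259 of Acvrl1 and NM_009868 of Cdh5. The window that the bins cover is not given in the sources used here. Among the UP genes the correlation between neighbouring bins was lower in longer genes (Spearman's rho of -0.45, -0.52, -0.40 and -0.51 across 218 genes, for Psat1KO of set 1 and 2 and CTRL of set 1 and 2). Across 49 DOWN genes rho was -0.59 and -0.53 in Psat1KO and CTRL of set 2. In set 1 it was 0.12 and -0.06, so the relation was not seen there. A bin over the gene alone would span 357 bases in Eng, 166 in Acvrl1 and 425 in Cdh5.

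The promoter of Eng is shown because its CG dinucleotides, in capitals, are the sites where 5hmC could stand next to the gene's start. It covers chr2:32646345-32646644 on the plus strand of GRCm38.p6 (RefSeq), from 250 bases before the start of the gene to 50 bases after it.
Eng promoter: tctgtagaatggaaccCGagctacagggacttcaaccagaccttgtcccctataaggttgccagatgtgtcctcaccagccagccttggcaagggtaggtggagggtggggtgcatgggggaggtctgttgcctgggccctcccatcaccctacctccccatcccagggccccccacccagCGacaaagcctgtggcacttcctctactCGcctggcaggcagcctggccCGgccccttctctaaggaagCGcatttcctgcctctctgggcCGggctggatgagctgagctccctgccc
This window held 6 CG dinucleotides, the first 234 bases before the start and the last 22 bases after it. The median over the 32851 promoter windows of this length in the RefSeq table was 7, 94.6% of them held at least 1, and 43.6% held fewer than Eng. CG reads the same on both strands. The signal cannot be placed on these bases, because the position of each bin relative to the gene's start is not known. Of the 3 genes, 1 matched the promoter table.

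Cdh5 had the highest 5hmC signal of the 3 genes in every library. Its level was 0.0439 and 0.0356 RPM in the Psat1KO libraries of set 1 and set 2, against 0.0392 and 0.0326 in the CTRL libraries. It ranked 7th and 6th of the 220 UP genes in Psat1KO and 19th and 15th in CTRL. Over the 4 libraries it averaged 0.0378 ± 0.00486 (SD, n = 4), and its lowest value lay above the highest value of either other gene. Eng averaged 0.0233 ± 0.00295 and Acvrl1 0.0232 ± 0.00330 (SD, n = 4), so those neighbours in the order did not differ beyond their spread. Both sat near the middle of the UP genes, between 0.951 and 1.18 times the median of the library for Eng and between 0.837 and 1.14 times for Acvrl1.

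**Figure D1:**
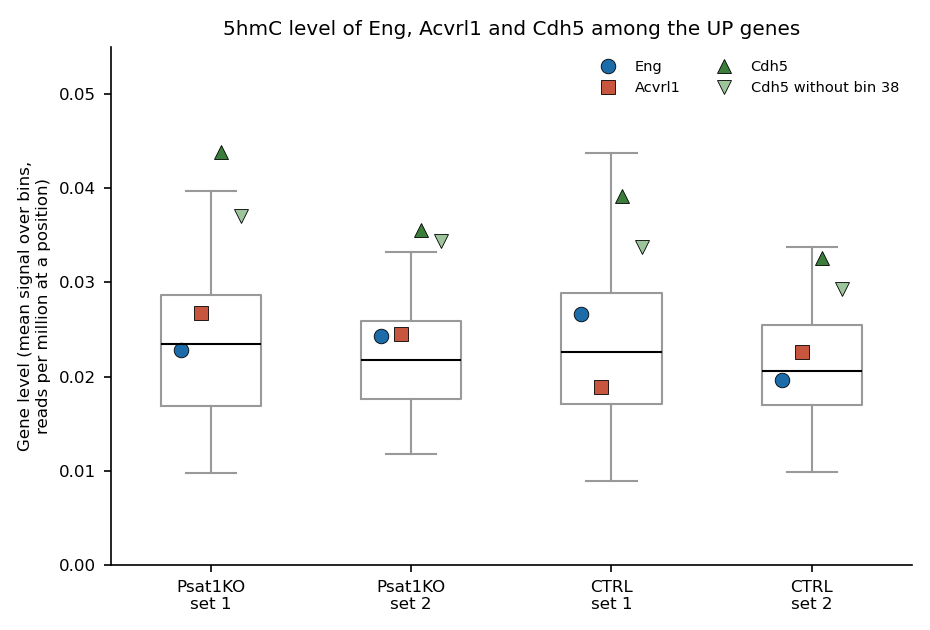
Level of each gene (mean signal over its bins, in RPM at a position) in each library. Boxes give the quartiles and median of the 220 UP genes and whiskers the 5th to 95th percentile. Cdh5 lies above the box in all 4 libraries, also without bin 38, while Eng and Acvrl1 lie within it.

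The 3 genes were then compared between the genotypes. Acvrl1 had higher levels in both Psat1KO libraries than in either CTRL library, whereas the groups overlapped at Eng and at Cdh5. For none of the 3 did the difference pass. The test, limma on log2(level + 0.005), was fitted on all 273 genes and called 0 genes at a Benjamini-Hochberg adjusted p under 0.05, which is 0% of the genes, and 8 genes (2.93%) had an unadjusted p under 0.05. With 2 libraries against 2, an exact permutation test of a single gene cannot give a p below 0.333. As nothing in the labels says that replicates came from separate animals, these p-values measure only the spread between libraries.

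Acvrl1 had levels of 0.0267 and 0.0246 RPM in the Psat1KO libraries of set 1 and set 2, against 0.0189 and 0.0226 in the CTRL libraries. All of the Psat1KO values were above all of the CTRL values, a pattern shown by 37 of the 220 UP genes (16.8%). The means were 0.0256 ± 0.00152 in Psat1KO and 0.0208 ± 0.00260 in CTRL (SD, n = 2 each), a ratio of 1.23. The log2 difference was 0.25 with a standard error of 0.12 and an interval of -0.10 to 0.61 (limma, adjusted p = 0.953), which holds 0. Within the sets the Psat1KO level was 1.41 times CTRL in set 1 (counting interval 0.965 to 2.09, from 82.4 reads in Psat1KO and 43.3 in CTRL) and 1.09 times in set 2 (0.872 to 1.36, from 173 and 159 reads). The larger ratio came from the shallower set, where it stood at the 91.4th percentile of the UP genes, against the 64.1st in set 2.

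Eng had 0.0228 and 0.0243 RPM in the Psat1KO libraries, against 0.0267 and 0.0196 in the CTRL libraries. The CTRL libraries held both the highest and the lowest value, and their ratio to each other, 1.36, exceeded that between the genotype means of 0.0235 ± 0.00104 in Psat1KO and 0.0231 ± 0.00499 in CTRL (SD, n = 2 each), which was 1.02. The sets went opposite ways, with a Psat1KO level 0.855 times CTRL in set 1 (0.594 to 1.22, from 70.4 and 60.9 reads) and 1.24 times CTRL in set 2 (0.984 to 1.56, from 171 and 138 reads). The fitted log2 difference was 0.03 with a standard error of 0.16 (limma, adjusted p = 1). It was -0.15 without the CTRL library of set 2 and -0.0054 without the Psat1KO library of set 2, 0.21 without the CTRL library of set 1, and -0.027 with each library divided by its median level.

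Cdh5 means were 0.0397 ± 0.00585 in Psat1KO and 0.0359 ± 0.00466 in CTRL (SD, n = 2 each). In both genotypes the library of set 1 was the higher one, by 1.23 times in Psat1KO and 1.20 times in CTRL. These gaps between replicates exceeded the ratio of the genotype means, 1.11. They went the same way in both genotypes, so a ratio within a set leaves such a shared gap out. The log2 difference was 0.13 with a standard error of 0.16 and an interval of -0.32 to 0.58 (limma, adjusted p = 1), and it was -0.0050 without the Psat1KO library of set 1. Within the sets the Psat1KO level was 1.12 times CTRL in set 1 (counting interval 0.845 to 1.47) and 1.09 times in set 2 (0.909 to 1.31). Over the 3 genes, 6 of 6 such intervals held a ratio of 1, where 11.8% of the intervals of the UP genes left it out. The Psat1KO level was above CTRL for 2 of the 3 genes in set 1, where 47.3% of the UP genes had this direction, for 3 of 3 in set 2 (60% of the UP genes), and for 2 of 3 in both (30%).

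Bin 38, known as a high bin from earlier results, carried up to 16.4% of the Cdh5 signal. It held 22.2 and 11 reads in the Psat1KO libraries of set 1 and set 2, against 13.1 and 25.5 in the CTRL libraries, or 16.4% and 4.39% of the gene's signal in Psat1KO and 14.6% and 11.1% in CTRL. Measured as a share of each gene's own signal at bin 38, Cdh5 ranked first of the 220 UP genes in 3 libraries and 4th in the Psat1KO library of set 2. As the bin was picked for being high in Cdh5, a high rank was built in. The highest bins of the other genes were not compared. The order of the genotypes differed between the sets. In set 1 the signal at bin 38 was 0.726 in Psat1KO (counting interval 0.451 to 1.09) and 0.579 in CTRL (0.306 to 0.982). In set 2 it was 0.158 in Psat1KO (0.0787 to 0.282) and 0.365 in CTRL (0.232 to 0.529). The separate intervals of the genotypes overlapped in both sets, which does not show that the genotypes were alike. No interval was computed for their ratio at this bin. Without bin 38 the Cdh5 levels were 0.0371 and 0.0344 in Psat1KO, against 0.0338 and 0.0293 in CTRL. The groups then no longer overlapped, with means of 0.0357 ± 0.00189 in Psat1KO and 0.0315 ± 0.00320 in CTRL (SD, n = 2 each), and the ratios were 1.10 in set 1 and 1.17 in set 2. Over all bins, 16.8% of the UP genes had both Psat1KO levels above both CTRL levels. The log2 difference of 0.16 with a standard error of 0.12 did not pass the test either (limma, adjusted p = 0.940). The gene stayed among the higher UP genes without this bin, at ranks 19 and 8 in Psat1KO and 36 and 27 in CTRL.

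The last stretch of the Cdh5 window was high as well, in all 4 libraries. The last 11 bins, from bin 91 on and singled out after their values were seen, had a mean signal of 0.101 and 0.101 in the Psat1KO libraries of set 1 and set 2, against 0.109 and 0.101 in the CTRL libraries. This was 2.73 and 3.67 times the mean of the other Cdh5 bins in Psat1KO and 3.55 and 4.15 times in CTRL. These bins make up 10.9% of the window and held 25% and 30.9% of the signal in Psat1KO, and 30.2% and 33.6% in CTRL, where the median UP gene had 7.74% to 9.67%. With bin 38 and this stretch both left out, the level of Cdh5 averaged 0.0277 ± 0.00216 in Psat1KO and 0.0225 ± 0.00288 in CTRL (SD, n = 2 each), and its rank among the UP genes lay between 50 and 117. Those groups did not overlap, as in 16.8% of the UP genes in this direction over all their bins. Cdh5 was then still the highest of the 3 genes in both Psat1KO libraries, but not in the CTRL libraries. There it had 0.0245 in set 1, below Eng at 0.0267, and 0.0204 in set 2, below Acvrl1 at 0.0226. Over the other bins the ratios were 1.19 in set 1 (0.826 to 1.74) and 1.28 in set 2 (1.005 to 1.62), so that the set 2 interval left out 1, with bins chosen after their values were seen. The log2 difference of 0.25 did not pass the test (limma, adjusted p = 0.940).

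**Figure D2:**
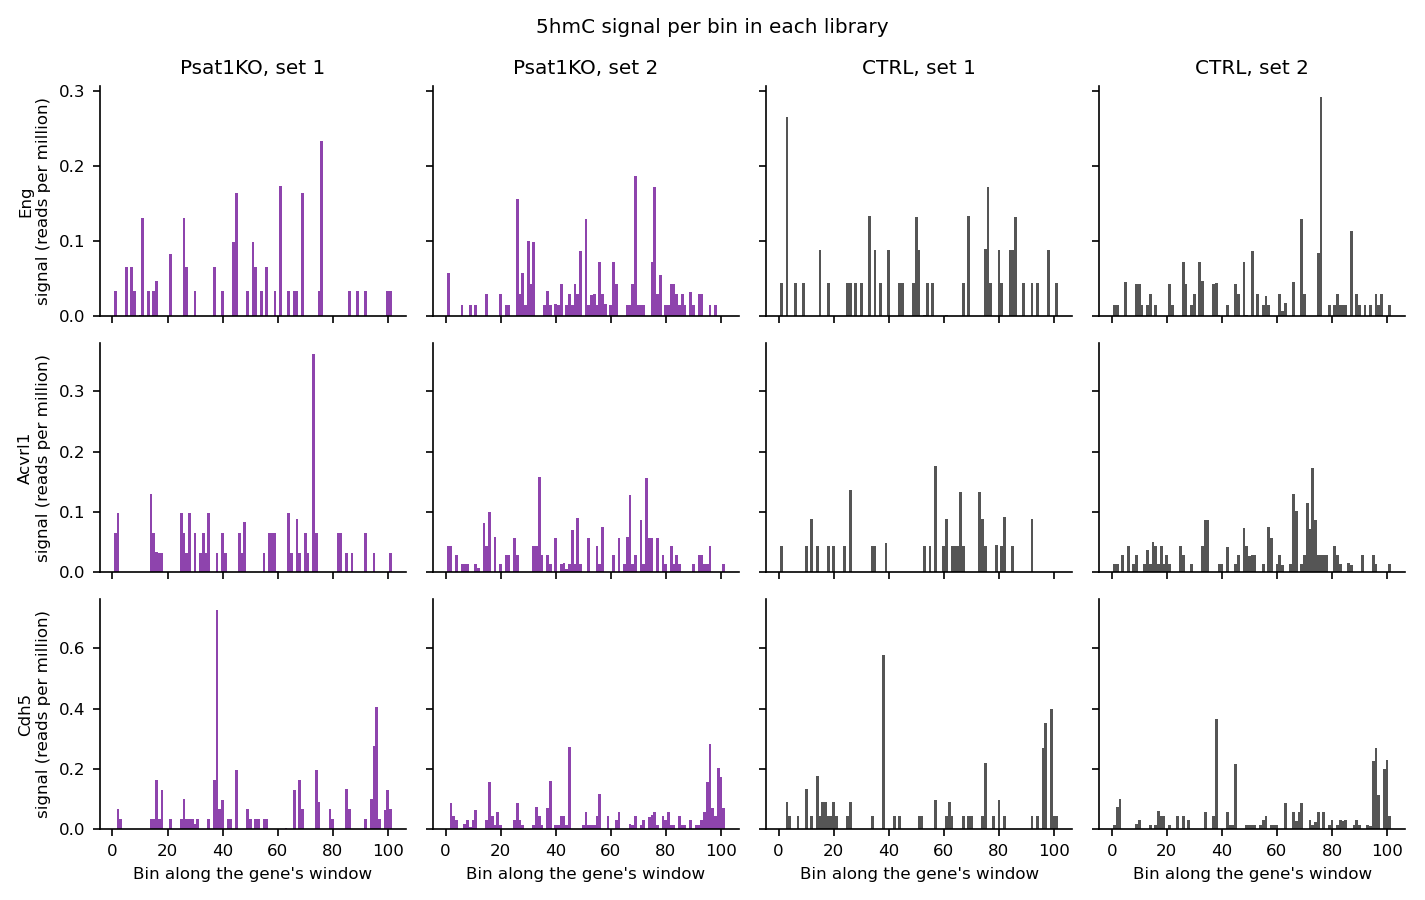
Signal in each bin (RPM) for Eng, Acvrl1 and Cdh5, from top to bottom, in the Psat1KO libraries (purple) and the CTRL libraries (grey), with 1 vertical scale per gene. Libraries run from left to right. Bins 38 and 96 of Cdh5, bin 73 of Acvrl1 and bins 69 and 76 of Eng are among the 5 highest bins of their gene in all 4 libraries, and bin 38 is lowest in the Psat1KO library of set 2.

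Eng and Acvrl1 had recurring bins of their own. Bins 69 and 76 were among the 5 highest Eng bins in all 4 libraries. Bin 76 held 7.13 and 12 reads in Psat1KO and 3.88 and 20.4 in CTRL, and bin 69 held 5 and 13 in Psat1KO and 3 and 9 in CTRL. The highest Eng bin of the CTRL library of set 1, bin 3 with 6 reads, held at most 1.41e-07 of a read in the other 3 libraries. In Acvrl1, bin 73 was among the 5 highest in all 4 libraries, with 11.1 and 10.9 reads in Psat1KO and 3 and 12 in CTRL. Bins that held at least 0.5 of a step in every library numbered 12 in Eng, 13 in Acvrl1 and 18 in Cdh5, and bins that did so in none numbered 15, 12 and 11. All these counts are small, so a single bin says little about a genotype.

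Profiles were most alike between the deep libraries of set 2. Across bins, which are not replicates, Pearson's r between Psat1KO and CTRL of set 2 was 0.65 for Eng, 0.67 for Acvrl1 and 0.80 for Cdh5, where the median UP gene had 0.61. Within set 1 it was 0.28, 0.38 and 0.60, against a median of 0.28. Without bin 38 the set 1 value for Cdh5 was 0.27, and that of set 2 was 0.83. The likeness of the Cdh5 profiles in set 1 therefore rested on bin 38, and that in set 2 did not. For Eng, Psat1KO of set 1 was about as like CTRL of set 2 (0.60) as it was like Psat1KO of set 2 (0.60).

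Each window was then divided into 5 stretches of 20 bins, the last of them 1 bin longer. In bins 41 to 60 the Eng level was 0.0295 and 0.0308 in Psat1KO, against 0.0221 and 0.0164 in CTRL, with ratios of 1.33 in set 1 (counting interval 0.583 to 3.23) and 1.88 in set 2 (1.10 to 3.25). In bins 61 to 80 the ratios were 1.23 and 1.17, and in bins 1 to 20, where the groups overlapped, they were 0.830 and 0.682. From bin 81 to the end Eng had 0.00778 and 0.0152 in Psat1KO, against 0.0294 and 0.0170 in CTRL, with ratios of 0.264 (0.0746 to 0.777) and 0.893 (0.473 to 1.63). The Psat1KO values of Eng were thus above both CTRL values in 2 neighbouring stretches, as in 18.6% and 19.5% of the UP genes, and below both in the last, as in 14.1% of them. The set 1 ratio in the last stretch came from 4.99 reads in Psat1KO and 14 in CTRL.

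In Acvrl1 the groups did not overlap in bins 1 to 20 and in bins 21 to 40, where 18.2% and 13.2% of the UP genes had both Psat1KO values above both CTRL values. The level in bins 21 to 40 was 0.0343 and 0.0258 in Psat1KO, against 0.0159 and 0.0172 in CTRL, with ratios of 2.16 in set 1 (0.910 to 6.19) and 1.50 in set 2 (0.870 to 2.63). From bin 81 on the ratios were 1.22 and 1.29, with overlapping groups. In bins 61 to 80, which hold bin 73 and gave the highest Acvrl1 level of any stretch in each library, the values overlapped, at 0.0389 and 0.0400 in Psat1KO, against 0.0354 and 0.0443 in CTRL. Cdh5 differed without overlap in bins 41 to 60, with ratios of 1.80 and 1.45, and from bin 81 on, with ratios of 1.05 and 1.03 (18.6% and 17.7% of the UP genes in this direction). Over the 15 stretches of the 3 genes, 7 had groups that did not overlap, 6 of them with Psat1KO higher and 1 lower. Over all stretches of the UP genes the groups did not overlap in 30.8%, in either direction. Of the 30 counting intervals 2 left out a ratio of 1, Eng in bins 41 to 60 of set 2 and from bin 81 on in set 1, beside 10.1% of such intervals over the UP genes. The stretches were not tested.

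**Figure D3:**
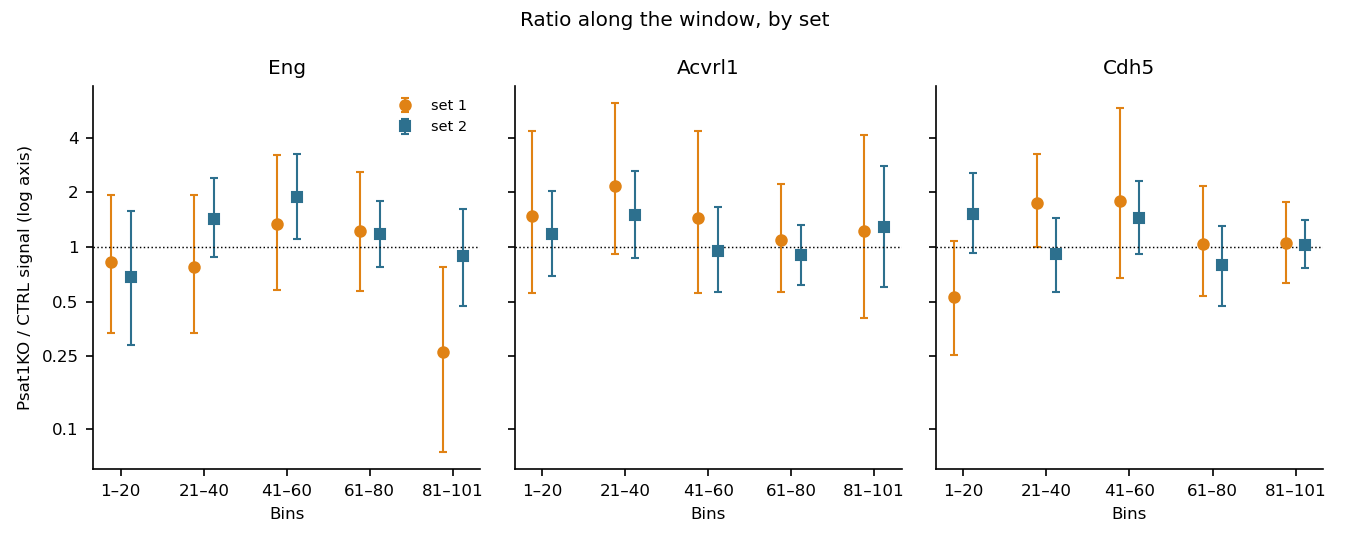
Ratio of Psat1KO to CTRL signal (log axis) in 5 stretches of bins for each gene, in set 1 (circles) and set 2 (squares), with exact 95% counting intervals. Most intervals cross the dotted line at 1. In both sets Eng lies above 1 in bins 41 to 80 and below 1 in bins 1 to 20 and from bin 81 on, Acvrl1 lies above 1 in bins 1 to 40 and from bin 81 on, and Cdh5 lies above 1 in bins 41 to 60 and from bin 81 on.

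Other genes of the pathway were taken from lists of BMP and TGF-beta ligands, receptors, SMADs, targets and inhibitors. Of 90 listed genes the tables hold 8, all marked UP. Those described here are Eng, Acvrl1, the ligand subunit gene Inhba, and Fstl1, Grem1 and Ltbp2 from the inhibitor list. None of the 8 passed the limma test or had an unadjusted p under 0.05, and their median log2 difference was -0.02, beside 0.01 over the UP genes and 0.0032 over all 273 genes. No SMAD gene was among the genes in the tables. Inhba, which encodes the activin A subunit, had 0.0186 and 0.0243 in Psat1KO, against 0.0206 and 0.0207 in CTRL, so that the groups overlapped.

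Grem1, a secreted antagonist of BMPs, had 0.0306 and 0.0249 in Psat1KO and 0.0437 and 0.0254 in CTRL. Its log2 difference was -0.24 with a standard error of 0.28 (limma, adjusted p = 1), and the CTRL library of set 1 held the highest value. Fstl1 had a log2 difference of -0.12 and Ltbp2 one of -0.01, each with an adjusted p of 1 by limma.

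Of 41 endothelial marker genes the tables hold Cdh5, Eng, Cd34, Flt4 and Esm1. Their median log2 difference was 0.03, and 0 of 5 passed the limma test or had an unadjusted p under 0.05. Cd34, a surface protein of vessels and of some progenitor cells, had 0.0187 and 0.0174 in Psat1KO, against 0.0171 and 0.0149 in CTRL. Those groups did not overlap, as in 16.8% of the UP genes in this direction. The log2 difference was 0.14 with a standard error of 0.11 (limma, adjusted p = 0.953). Flt4, a receptor of vascular endothelial growth factors, went the same ways as Eng, with ratios of 0.727 in set 1 and 1.37 in set 2, and so did Esm1, with 0.866 and 1.15. The median ratio over the UP genes also lay below 1 in set 1 (0.956) and above 1 in set 2 (1.04), so these directions are not particular to endothelial markers. Other cadherin genes were Cdh11, marked UP, with ratios of 1.03 and 0.930, and Cdh6, marked DOWN, with 0.864 and 1.45. In the CTRL library of set 2 their levels were 0.0135 and 0.0126, against 0.0326 for Cdh5. No adherens junction partner from a list of 10 was in the tables.

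By the pair of log2 ratios in the sets, the UP genes nearest to Eng were Vasn, at a distance of 0.034, and Lrrc32, at 0.053. Nearest to Acvrl1 were Col1a1 (0.0055), a collagen gene, and Ripk3 (0.029), a kinase gene. Nearest to Cdh5 were Lgals3bp (0.026) and Prl2c2 (0.052), but the level of Prl2c2 was at most 0.000723 in any library, so the pseudocount sets its place. The measure uses 2 values per gene from 4 libraries.

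**Figure D4:**
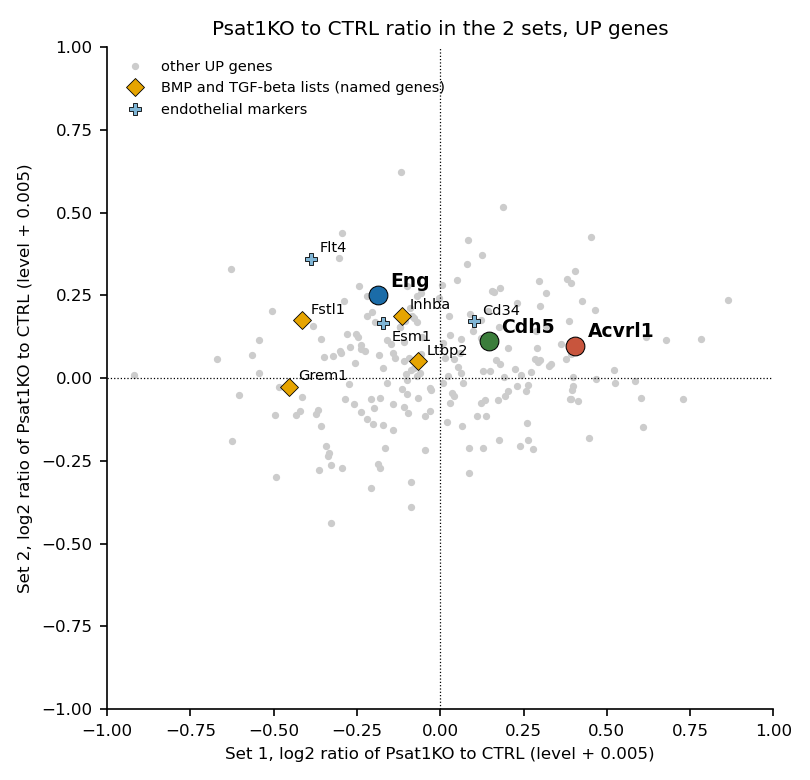
Log2 ratio of Psat1KO to CTRL (level + 0.005) in set 1 (horizontal) and set 2 (vertical) for the UP genes, of which 218 fall within the axes and 2 outside. Acvrl1 and Cdh5 lie right of and above 0, Eng lies left of and above 0, and the other genes named in the plot lie left of 0 in set 1 except Cd34, within the cloud of UP genes.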

How the data were processed

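The authors deposited a coverage signal in bins along each gene, in 2 tables with a CTRL and a Psat1KO library each. Tools named in the submitters' processing notes, without role or order, are MACS 1.4.2, Bowtie 1.3.1 and Trim Galore 0.6.7, beside the build mm10. How the bins were made and scaled, and the rule behind UP and DOWN, is not given in these sources. The 4 input libraries were not analysed here. No value was below 0, and whether input was subtracted is not known. Blocks were assigned by genotype and table number. Ratios are also given within a table, since the tables differ in depth.

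A gene's level is its mean over bins. The test was limma 3.58.1 (R 4.3.3) on log2(level + 0.005), Psat1KO against CTRL, no covariate, over 273 genes, with Benjamini-Hochberg adjustment. It was checked on simulated data in which changes were absent or larger than those of the 3 members. That check therefore does not tell whether differences of their size would be found. Counting intervals were computed with scipy 1.17.1 (Clopper-Pearson for ratios). Symbols were matched to RefSeq by transcript. The genes named are the 3 members, members of the lists (some list genes are not reported here), and the 2 UP genes nearest to each member by Euclidean distance of their log2 ratios. Members and lists were chosen with earlier results of these data known. Alternatives concerned the pseudocount, low levels, library scaling, high bins, the UP genes alone, a replicate block and leaving out each library.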

Additional observations from a re-analysis of the deposited data

How the results depend on the processing

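No setting called a gene: the count stayed at 0 in all 12 alternatives by limma, with 2 to 15 genes at an unadjusted p under 0.05. Leaving out 1 library gave log2 differences of -0.15 to 0.21 for Eng, 0.15 to 0.35 for Acvrl1, -0.0050 to 0.26 for Cdh5 and 0.07 to 0.25 for Cdh5 without bin 38, where a lone library is assumed to vary like the other genotype. Eng turned to a lower Psat1KO level without CTRL replicate 2 (-0.15), without Psat1KO replicate 2 (-0.0054) and with each library divided by its median level (-0.027), and Cdh5 turned without Psat1KO replicate 1 (-0.0050). Without CTRL replicate 1 the Eng difference was 0.21. The cause was not tested. Acvrl1 and Cdh5 without bin 38 kept a higher Psat1KO level in every alternative run. Their groups did not overlap, so leaving out a library, another pseudocount, the UP genes alone or a block could not turn it. With a pseudocount of 1 the log2 differences shrink to 0.0068 for Acvrl1 by construction. The labels do not say that equal replicate numbers pair samples, and with the replicate number as a block the differences stay as they are, at 0.03 for Eng, 0.25 for Acvrl1 and 0.13 for Cdh5, with an adjusted p of 0.720 for Acvrl1 and Cdh5. Deviations of equal numbers had an r of 0.37 across 273 genes and of 0.22 across the 220 UP genes. Leaving out the last 11 bins of Cdh5, chosen after seeing the data, gave 0.19, or 0.25 without bin 38 too. Depth limits single bins and set 1 most.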
